A study of Mus musculus with 10 samples.

Results

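Among 4 liver tumors of ABC-Myc mice, the study read the stem cell markers Dlk1, Epcam and Gpc3 as higher in one pair, NEJ634 and NEJ723, and lower in the other, NEJ687 and NEJ146. All genes were compared between these sides, and a gene was a member where both tumors of one side exceeded both of the other. Of 31053 genes in the files, 8266 had a mean of at least 10 counts per 1000000 (CPM) over the 4 tumors, and 4106 of them were members. Of these, 3252 genes were higher in NEJ634 and NEJ723 and 854 were lower, which is 39.3% and 10.3% of the genes tested. This excess of higher genes turned with the scaling, since 1996 genes were higher and 1970 lower (24.1% and 23.8%) when each tumor was scaled by the median of its ratios to the mean over tumors, and 1555 and 2307 with edgeR's trimmed mean of M values (TMM). The share of members that were higher was thus 79.2% in CPM, 50.3% under the median of ratios and 40.3% under TMM. The sides come from marker levels read in these same sections and each holds 2 tumors, so the results describe 4 tumors and no test between the sides was made.

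ABC-Myc mice (Alb-Cre+/wt::CAG-MYC+/wt, on a C57BL/6J background) carry Cre recombinase under the albumin promoter, which is active in hepatocytes and their fetal precursors, and a human MYC transgene under the CAG promoter that Cre switches on. All 4 tumors share this genotype, no treatment is given for any of them, and the ages of the animals are not in the labels. The human transgene is not among the mouse genes counted, and mouse Myc stood at 5.25 and 3.78 CPM in NEJ634 and NEJ723 against 5.62 and 4.46 in NEJ687 and NEJ146. The sections were measured on Visium slides, whose barcoded spots each capture RNA from a patch of tissue wide enough for several cells, and each captured molecule is counted once by its unique molecular identifier (UMI). The series holds 10 sections, of which 7 are compared here. These are 1 each of NEJ634, NEJ723 and NEJ687, and 4 of NEJ146, which are summed into 1 unit. The labels call all 10 sections hepatoblastoma and do not say which are of healthy liver. The study states that 3 healthy livers were profiled beside 4 tumors, and the 4 tumors it names leave NEJ638, NEJ654 and NEJ677. These 3 are called the other tissues here.

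Hepatoblastoma is a liver cancer of early childhood whose cells resemble stages of the fetal liver. In that organ, hepatoblasts express Dlk1, Epcam and Gpc3 and give rise both to hepatocytes and to the cells that line the bile ducts. Maturing hepatocytes gain the enzymes of the urea cycle, of drug metabolism and of bile acid handling, while duct cells and other simple epithelia keep claudins, which seal the junctions between neighboring cells, and keratins.

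Tissue spots held 56536112 UMIs (NEJ634), 43641797 (NEJ723), 57428022 (NEJ687) and 83686641 to 117077925 in each NEJ146 section. Median UMIs per spot ran from 12133.5 in NEJ687 to 28926.5 in NEJ634. The NEJ146 sections are labelled total RNA rather than polyA RNA, were deposited without tissue calls and had 6.78 to 7.22% mitochondrial UMIs against 2.84 to 3.86% in the other tumors. Their labels also name other counting software than those of the other sections. Counts that rest on NEJ146 are therefore also given against NEJ687 alone, which has the same RNA type and protocol in its labels as NEJ634 and NEJ723. The labels name no batch or slide for these 3 tumors. Liver genes were present in every tumor: 7 parenchymal genes summed to 38500, 36000, 39700 and 27500 CPM in NEJ634, NEJ723, NEJ687 and NEJ146, against 93100 to 129000 CPM in the other 3 tissues. Alb was at 13100, 7840, 8630 and 9620 CPM and did not separate the sides. In summed spots, fewer cells of a type and less RNA per cell cannot be told apart.

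The genes that set the order are given first, as a description. Dlk1, a fetal surface protein of the Notch ligand family, was at 108 and 107 CPM (NEJ634, then NEJ723) against 42.7 and 28.0 CPM (NEJ687, then NEJ146), the order in which pairs of values are given throughout. The 4 NEJ146 sections lay at 17.2, 48.6, 30.8 and 11.2 CPM, so 1 of them was above NEJ687. Epcam, an adhesion protein of epithelia, was at 54.8 and 58.8 CPM against 2.09 and 7.40. Gpc3, an oncofetal proteoglycan, was at 7.50 and 30.6 CPM against 4.06 and 3.67, so that NEJ634 lay nearer in CPM to the other side than to NEJ723. The distance between the sides is given below as the gap, the lowest log2(CPM + 1) of the higher side minus the highest of the other, which was 1.31 for Dlk1, 2.73 for Epcam and 0.75 for Gpc3. Other genes of these tumors were mixed. Cyp2e1, a P450 enzyme of mature hepatocytes, was at 70.5, 1.21, 45.6 and 238 CPM in NEJ634, NEJ723, NEJ687 and NEJ146, and the sides overlapped. Glul, the glutamine synthetase of hepatocytes near the central vein, was lower in the stem-marker-high pair, at 89.0 and 36.4 CPM against 116 and 93.9, a gap of 0.08 whose order was lost when spots of at least 8000 UMIs were used in every tumor in place of the tissue call (-0.03). That rule also took in spots outside the call, with 3727 spots in NEJ634 in place of 1890 and 3228 in NEJ723 in place of 2396. The order of Glul was also lost without the spots rich in P450 UMIs described below (-0.06). Mki67, a marker of cycling cells, was higher at 168 and 157 CPM against 116 and 81.3, while the replication clamp Pcna, at 64.6 and 60.6 against 65.9 and 60.7, overlapped. The fetal genes Afp (4250 and 3280 against 4080 and 2040 CPM) and Igf2 (267 and 404 against 435 and 81.3 CPM) and the duct keratin Krt19 (43.2 and 6.07 against 2.05 and 7.12 CPM) also overlapped. Of the published classifier genes the study used, 3 of 7 proliferative (C2) genes tested were higher and none lower, and 4 of 8 differentiated (C1) genes were lower and none higher. Of all genes 39.3% were higher and 10.3% lower, so the C2 count is near the share of all genes in CPM. Under the median of ratios it was again 3 of 7, beside 24.1%, so this reading turned with the scaling. The stem cell markers, Cyp2e1, Glul, Mki67 and the classifier genes were read by the study beside the order, so they are no independent support for it.

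A gap of at least 1, at which the sides are at least 2-fold apart in CPM + 1, was reached by 86 genes higher in NEJ634 and NEJ723, which is 1.04% of the genes tested, and by 31 genes lower, which is 0.375%. This excess too turned with the scaling and the filter, with 57 higher and 50 lower under the median of ratios, 51 and 66 under TMM, and 14 and 18 where the filter was set at 50 CPM. All 86 and all 31 lay beyond each of the 4 NEJ146 sections taken alone, which a 2-fold distance from the sum of these sections makes likely beforehand. Of all members, 3010 of the 3252 higher genes and 663 of the 854 lower genes did so. Over the 4 NEJ146 sections, which are of 1 tumor, the median standard deviation (SD) of log2(CPM + 1) was 0.211 for the 86 genes and 0.152 for the 31. The gap was over 2 SD for 1864 of the 3252 higher members and 409 of the 854 lower members. The nearest tumor of the lower side was NEJ687 for 49 of the 86 genes and NEJ146 for 37. Levels in the other 3 tissues lay below those of all 4 tumors for 53 of the 86 higher genes (61.6%), beside 47.6% of all genes tested and 55.7% of all higher members. For the 31 lower genes they lay above both NEJ634 and NEJ723 in 18 (58.1%, beside 17.8% of all genes). Among all lower members this share was 57.4%, so it was not particular to the 31. They lay below both NEJ687 and NEJ146 in 13 (41.9%, beside 49.7% of all genes and 33.8% of lower members). They lay above all 4 tumors in 8 (25.8%, beside 14.6% of all genes but 41.8% of lower members). NEJ634 and NEJ723 were within 2-fold of each other for 81 of the 86 higher genes (94.2%), near the 96.1% of all genes tested, and for 14 of the 31 lower genes (45.2%).

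**Figure D1:**
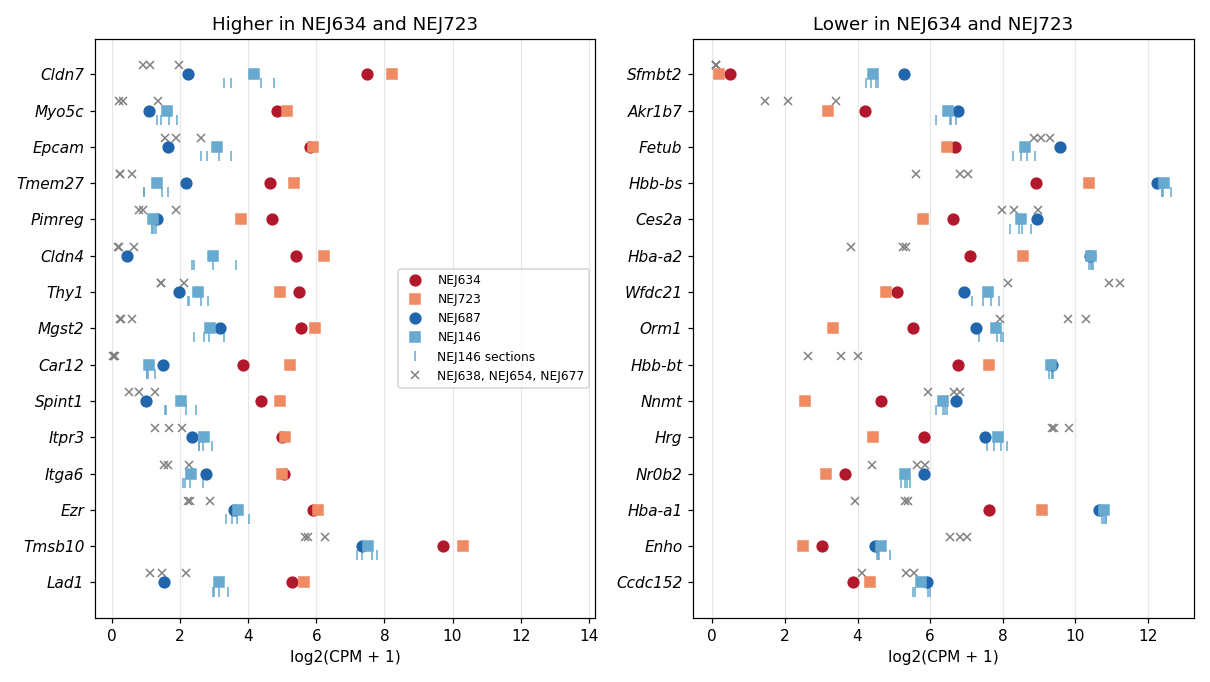
Levels, as log2(CPM + 1), of the 15 genes with the widest gap in each direction in NEJ634 and NEJ723 (red and orange), NEJ687 and NEJ146 (dark and light blue), the 4 single NEJ146 sections (ticks) and the 3 tissues not named as tumors (crosses). Red and orange points lie to the right of all blue points on the left panel, led by Cldn7 with a gap of 3.32, and to the left of them on the right panel, led by Sfmbt2 with a gap of 3.94.

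Of the 15 genes with the widest gaps upward, predicted gene models left out, 3 were on the list of epithelial junction and keratin genes given further on: Cldn7, Cldn4 and Ezr. Epcam, which helped set the order, is also among the 15. Cldn7, a claudin of ducts and other simple epithelia, was at 177 and 300 CPM against 3.66 and 16.9, and the NEJ146 sections averaged 16.2 ± 8.18 CPM (SD, n = 4). Its NEJ687 level rests on 210 UMIs, with an exact Poisson 95% interval of 3.18 to 4.19 CPM that covers counting error only. Cldn4 was at 40.9 and 73.1 CPM against 0.348 and 6.81, and Cldn6, a claudin of embryonic epithelia, was at 35.1 and 62.2 CPM against 1.95 and 7.50. All 3 were lowest in NEJ687, where Cldn4 had 20 UMIs (0.213 to 0.538 CPM). Ezr, which ties the membrane to actin, was at 59.1 and 65.1 CPM against 11 and 11.9. Myo5c, a myosin of exocrine epithelia, was at 27.6 and 34.5 CPM against 1.13 and 2.08, the second widest gap at 3.21. Spint1, an inhibitor of the epithelial serine protease matriptase, was at 19.6 and 29.7 CPM against 1.01 and 3.09. Itga6, a laminin receptor, was at 31.8 and 30.8 CPM against 5.76 and 3.99, and Lad1, a protein of the basement membrane zone, at 37.9 and 48.7 CPM against 1.90 and 7.86.

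The most abundant of these 15 genes was Tmsb10, an actin-binding peptide, at 850 and 1260 CPM against 160 and 184. Thy1, a surface protein of thymocytes, fibroblasts and some progenitor cells, was at 43.9 and 29.6 CPM against 2.94 and 4.74. Mgst2, a microsomal glutathione transferase, was at 45.4 and 61.1 CPM against 8.04 and 6.30. Neither gene had a NEJ146 section that reached the level of NEJ634 or NEJ723. Car12, a membrane carbonic anhydrase, was at 13.3 and 36.4 CPM against 1.81 and 1.14, and Itpr3, a calcium channel of the endoplasmic reticulum that duct cells use, at 30.9 and 32.9 CPM against 4.06 and 5.46. Tmem27, or collectrin (24.1 and 39.6 against 3.53 and 1.48 CPM), and Pimreg, a regulator of mitosis (24.8 and 12.8 against 1.5 and 1.32 CPM), complete the 15, each with a gap of 2.47.

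Among the genes with a gap of at least 1, some were picked for mention after their values were seen. The basement membrane genes Col4a1 (353 and 345 against 138 and 116 CPM), Col4a2 (221 and 223 against 97.5 and 79.6 CPM), Lamb1 (60.5 and 45.3 against 17.0 and 16.9 CPM), Nid1, Agrn and Lama1 had gaps of 1.03 to 1.36. S100a6, a calcium-binding protein, was at 337 and 484 CPM against 30.9 and 82.8. The chemokine Cxcl10 was at 108 and 125 CPM against 24.5 and 25.1, and A2m, a protease inhibitor of plasma, was at 281 and 273 CPM against 67.9 and 14. St14, which encodes matriptase, was at 13.9 and 22.2 CPM against 1.15 and 2.92, so that both the protease and its inhibitor Spint1 were higher. The receptor Erbb2 was at 16.2 and 15.5 CPM against 5.64 and 3.62, and the collagen receptor Ddr1 at 31.7 and 23.3 CPM against 3.97 and 6.56.

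The promoters of Epcam, Cldn4 and Cldn6, and of the sterol exporter gene Abcg5 from the lower side (gap 1.06), are shown as examples of genes from each direction. Epcam helped set the order of the tumors, and it is also among the promoters counted below for the 86 higher genes. Each sequence runs 5′ to 3′ on the gene's strand from 250 bases before to 50 bases after the RefSeq start on GRCm38.p6, and capitals mark CAGGTG or its reverse complement CACCTG, the palindrome CACGTG, and TGACTCA or its reverse complement.
Epcam, chr17:87635729-87636028, plus strand: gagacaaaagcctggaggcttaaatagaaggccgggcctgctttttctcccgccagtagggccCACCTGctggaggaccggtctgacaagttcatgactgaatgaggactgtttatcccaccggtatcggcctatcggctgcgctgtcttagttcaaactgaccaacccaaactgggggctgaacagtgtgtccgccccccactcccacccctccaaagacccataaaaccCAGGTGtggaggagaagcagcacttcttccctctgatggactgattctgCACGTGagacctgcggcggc
Cldn4, chr5:134946885-134947184, minus strand: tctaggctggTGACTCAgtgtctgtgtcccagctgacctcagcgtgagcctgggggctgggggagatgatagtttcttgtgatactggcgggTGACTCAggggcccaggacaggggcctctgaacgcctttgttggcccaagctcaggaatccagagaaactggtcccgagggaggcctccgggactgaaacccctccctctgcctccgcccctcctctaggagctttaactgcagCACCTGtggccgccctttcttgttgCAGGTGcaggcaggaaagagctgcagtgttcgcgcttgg
Cldn6, chr17:23679115-23679414, plus strand: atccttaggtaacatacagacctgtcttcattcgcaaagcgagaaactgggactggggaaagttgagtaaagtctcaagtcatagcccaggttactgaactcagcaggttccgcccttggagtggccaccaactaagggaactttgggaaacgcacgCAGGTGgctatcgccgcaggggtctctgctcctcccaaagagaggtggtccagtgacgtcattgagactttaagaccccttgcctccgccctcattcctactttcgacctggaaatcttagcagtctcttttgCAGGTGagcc
Abcg5, chr17:84682962-84683261, minus strand: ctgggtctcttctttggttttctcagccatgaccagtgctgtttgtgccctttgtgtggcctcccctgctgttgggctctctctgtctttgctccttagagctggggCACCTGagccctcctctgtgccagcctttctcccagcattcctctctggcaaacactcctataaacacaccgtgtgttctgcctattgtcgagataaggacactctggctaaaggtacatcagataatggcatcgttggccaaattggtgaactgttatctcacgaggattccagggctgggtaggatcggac
Epcam, Cldn4 and Cldn6 each held CAGGTG on 1 of the 2 strands at 2 places, Epcam also CACGTG and Cldn4 also TGACTCA at 2 places, whereas Abcg5 held CAGGTG at 1 place. CAGGTG, searched on both strands, was in 21 of the 64 promoters found for the 86 higher genes (32.8%), in 5 of 23 for the 31 lower genes (21.7%), in 16.7% of promoters of tested genes and in 20% of all 27025 promoters. TGACTCA was in 8 of 64 (12.5%), 2 of 23 (8.7%), 3.52% and 5.17% of the same sets, and CACGTG in 7 of 64 (10.9%), 3 of 23 (13.0%), 11.2% and 7.24%. A match describes letters in a window and not a bound site.

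Of 20 listed epithelial junction and keratin genes, 17 passed the 10 CPM filter, 12 were higher in NEJ634 and NEJ723 and 1 was lower, beside the 39.3% and 10.3% of all genes. Besides the claudins above, Cldn3 was at 147 and 222 CPM against 44.5 and 81.5, and Cgn, which links tight junctions to the cytoskeleton, was at 67.1 and 89.0 CPM against 42.0 and 30.4. The keratins of simple epithelia were closer, with Krt8 at 501 and 542 CPM against 229 and 333, and Krt18 at 368 and 383 CPM against 226 and 243. Cldn14 went the other way at 6.76 and 6.81 CPM against 23.0 and 9.63, and Cldn1, Cldn12, Krt19 and Cd9 overlapped. The summed list was at 2050 and 2440 CPM against 1130 and 1120, while the other 3 tissues were at 1020 to 1150 CPM. Its median difference between the means of the sides exceeded that of all genes by 0.83 on the log2 scale. That of all genes was itself 0.20 above 0, and list medians are given relative to it.

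Of 11 bile duct markers, 7 passed the filter and 4 were higher, beside 39.3% of all genes, among them Cldn4, Krt7 and Bicc1. Krt7, a keratin of ducts, was at 41.6 and 23.1 CPM against 0.923 and 5.27. Bicc1, an RNA-binding protein of ducts and tubules, was at 52.5 and 45.7 CPM against 16.3 and 19.8. The more usual duct markers overlapped: Spp1 was at 351, 31.5, 68.1 and 110 CPM in NEJ634, NEJ723, NEJ687 and NEJ146, and Tspan8 at 35.5, 4.40, 9.54 and 8.51. These 2 genes and Krt19 were lowest or next to lowest in NEJ723, a tumor with high Epcam. The summed duct list was at 608 and 211 CPM against 112 and 175, and NEJ723 was level with NEJ146 section 2, also at 211 CPM.

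All 25 mitosis genes were tested, and 25 were higher in NEJ634 and NEJ723. The gaps were small, from 0.18 for Cdca8 to 1.10 for Kif23, a kinesin of cytokinesis at 30.5 and 25.7 CPM against 11.4 and 8.81. Cdk1, the kinase that drives entry into mitosis, was at 164 and 154 CPM against 92.5 and 84.6, and Top2a, the topoisomerase that untangles chromosomes, at 125 and 107 CPM against 76.1 and 64.7. The list summed to 1720 and 1520 CPM against 1100 and 997, and was at 76.5 to 323 CPM in the other 3 tissues. DNA replication genes separated less, with 15 of 23 higher and none lower, and the widest gap among them was 0.42 for Rfc4. Mcm3, Mcm5, Cdc6, Cdc45, Rrm1, Tyms and Ccne1 were among those that overlapped. Of 22 nucleolar genes of ribosome biogenesis, a program that MYC is known to drive, 13 were higher and none lower, with 0.34 for Npm1 as the widest gap. These counts stand beside 39.3% higher and 10.3% lower among all genes. Under scaling by the median of ratios, where 24.1% of all genes were higher and 23.8% lower, the order of Npm1 was lost (-0.02) and the counts of these lists were 22 of 25, 12 of 23 with 1 lower, and 8 of 22.

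**Figure D2:**
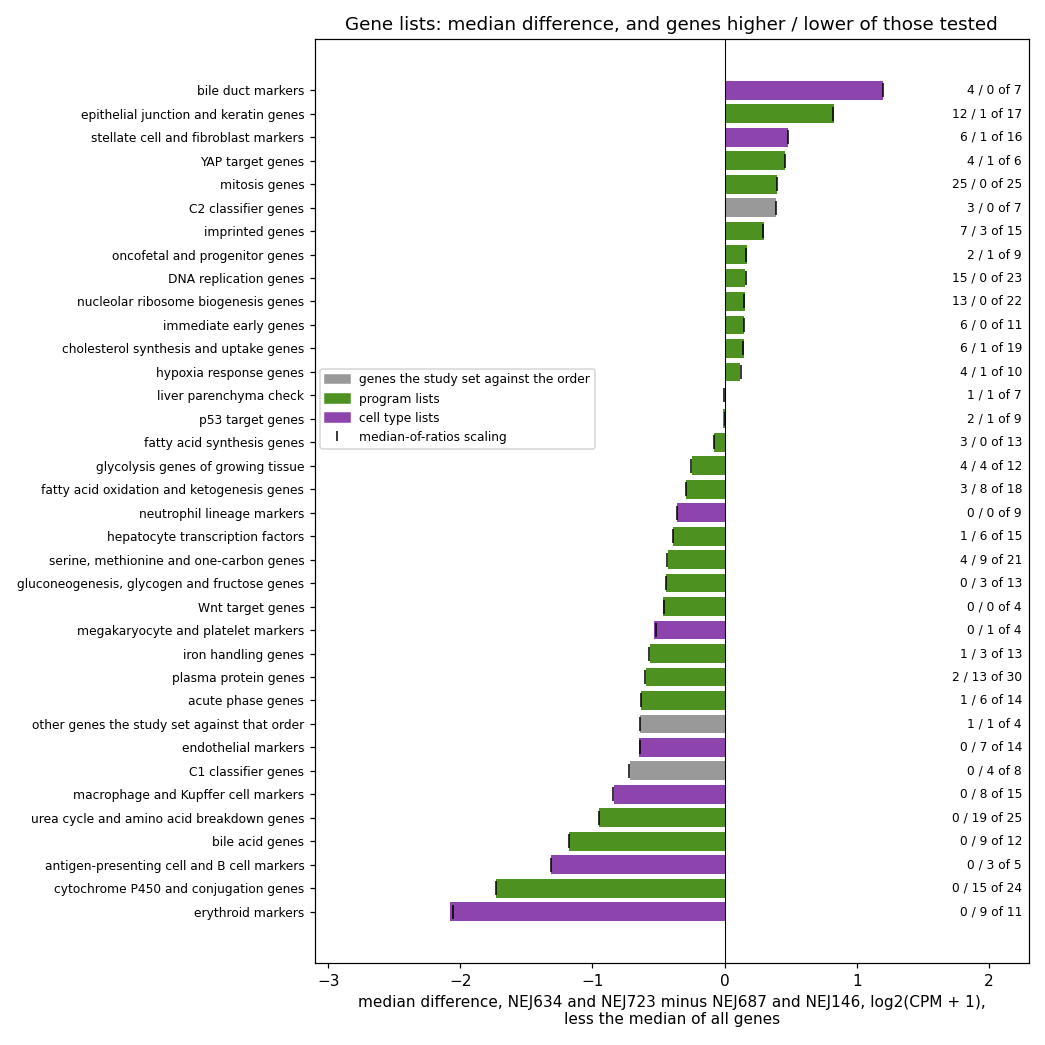
Median over each gene list of the difference in log2(CPM + 1) between the mean of NEJ634 and NEJ723 and the mean of NEJ687 and NEJ146, less the median of all 8266 genes, with numbers of genes higher and lower of those tested at the right. Bars right of 0 are higher in NEJ634 and NEJ723, led by bile duct markers (1.20), bars left of 0 are lower, led by erythroid markers (-2.08), and black ticks give the same values under median-of-ratios scaling.

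On the lower side, the widest gap was that of Sfmbt2, a Polycomb-group gene at chr2:10370510-10595253 on GRCm38, plus strand. It was at 0.389 CPM (22 UMIs, 0.244 to 0.589) and 0.137 CPM (6 UMIs, 0.0505 to 0.299) against 37.8 and 20.3 CPM. The other 3 tissues held at most 0.0782 CPM, a level within the interval of NEJ723 and below that of NEJ634. NEJ687 and NEJ146 stood far above all of these. Akr1b7, an aldo-keto reductase, was at 17.4 and 8.13 CPM against 107 and 89.2. Several products of mature hepatocytes followed. Fetub, a plasma protease inhibitor, was at 101 and 87.5 CPM against 761 and 387. Ces2a, a carboxylesterase, was at 97.8 and 54.6 CPM against 491 and 360, and Hrg, histidine-rich glycoprotein of plasma, at 56.2 and 20.6 CPM against 183 and 233. Orm1, an acute phase glycoprotein, was at 44.8 and 8.96 CPM against 153 and 225, and Nnmt, which methylates nicotinamide, at 24.0 and 4.90 CPM against 104 and 80.8. Nr0b2, a nuclear receptor that represses bile acid synthesis, was at 11.7 and 7.77 CPM against 55.9 and 38.9. In each of these genes NEJ723 was lower than NEJ634. Wfdc21 (32.9 and 26.5 against 120 and 192 CPM) and Enho (7.18 and 4.65 against 21.5 and 23.9 CPM) had gaps of 1.83 and 1.46, and 4 globin genes of the same 15 are described with the red cell genes. Ccdc152, at 13.8 and 19.2 CPM against 59.6 and 52.8, overlaps Selenop on the opposite strand, and since the use of strand in the counting is not given in the sources used here, its count is uncertain. Selenop itself was lower at 1500 and 1170 CPM against 2510 and 2430. Other genes named here also overlap a coding gene on the opposite strand, so the same doubt holds for their counts. They include Ezr, Cxcl10, Enho, Erbb2, Sds and Mest.

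Of 25 urea cycle and amino acid breakdown genes, 19 were lower in NEJ634 and NEJ723 and none higher, beside 10.3% lower among all genes. Ass1, which joins citrulline and aspartate in the urea cycle, was at 583 and 532 CPM against 1090 and 1090, and Cps1, the entry enzyme of the cycle, at 1590 and 1170 CPM against 2310 and 2260. Aass, of lysine breakdown, was at 42.0 and 42.0 CPM against 81.9 and 95.4. For Ass1 and Aass both tumors of each side were close to one another, whereas for Cps1 NEJ634 lay between NEJ723 and the other side. Sds, of serine breakdown, was at 128 and 70.4 CPM against 322 and 242, and Tat, of tyrosine breakdown, was at 73.2 and 7.38 CPM against 136 and 163. Nags, Tdo2, Sdsl, Oat and Haao were among those that overlapped. The list summed to 4630 and 3560 CPM against 6680 and 7050, with 11500 to 13900 CPM in the other 3 tissues.

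Of 16 bile acid genes, 12 passed the filter, 9 were lower and none higher, beside 10.3% lower among all genes (23.8% under the median of ratios, where 9 were lower too). Abcg5 and Abcg8, whose products pair as the sterol exporter of the canalicular membrane, were at 26.8 and 8.39 CPM against 65.7 and 56.7, and at 33.5 and 10.5 CPM against 83.2 and 68.7. These genes lie head to head on chromosome 17, and the promoter windows overlap by 209 bases (chr17:84682962-84683170), so the Abcg5 sequence above covers part of the promoter of both. The annotated genes also overlap each other on opposite strands, so the doubt about strand holds for their counts. Abcb11, the bile salt export pump, was at 280 and 116 CPM against 486 and 453, and Slc10a1, the bile salt uptake carrier, at 238 and 144 CPM against 362 and 330. Cyp8b1, Baat and Slco1b2 overlapped.

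Of 24 cytochrome P450 and conjugation genes tested of 28, 15 were lower and none higher, beside 10.3% lower among all genes. Gstm1, a glutathione transferase, was at 314 and 189 CPM against 612 and 1210, and Cyp3a25 at 124 and 59.5 CPM against 269 and 233. In others, NEJ634 was near NEJ687 while NEJ723 was far below and NEJ146 far above. Cyp2c29 was at 35.2, 0.115, 50.9 and 255 CPM in NEJ634, NEJ723, NEJ687 and NEJ146. The 9 that overlapped include Cyp1a2, Cyp2c37 and Cyp2c50, each lower in NEJ687 than in NEJ634. NEJ146 also differed in how these genes lay in the section: spots with at least 100 of their UMIs per 10000 were 14.5 to 23.0% of spots in its sections, 2.88% in NEJ687, 0.899% in NEJ634 and 0% in NEJ723, against 99.9 to 100% in the other 3 tissues. Without these spots in any tumor, 13 of 24 P450 and conjugation genes, 8 of 12 bile acid genes and 19 of 25 urea cycle and amino acid genes were lower and none was higher, beside 841 (10.2%) of all genes lower. Of the genes with a gap of at least 1, 83 of the 86 and 25 of the 31 still had one without these spots.

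**Figure D3:**
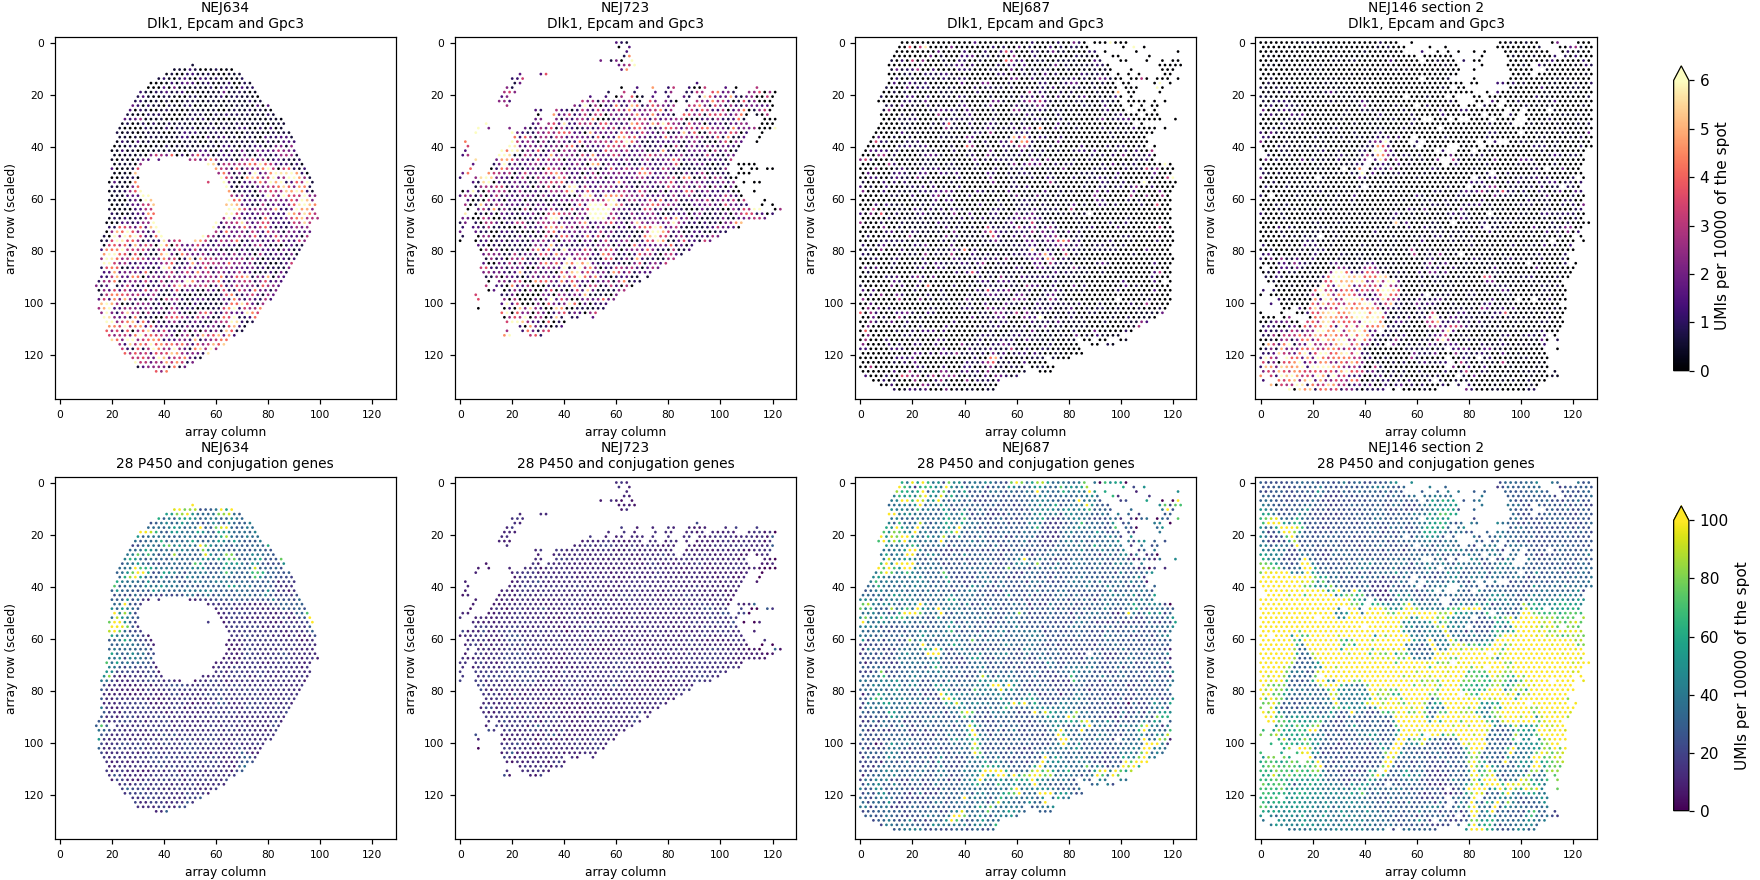
Sections of NEJ634, NEJ723, NEJ687 and NEJ146 (section 2) by array column and row, each point a spot of at least 500 UMIs, colored by UMIs per 10000 of Dlk1, Epcam and Gpc3 (top) and of 28 P450 and conjugation genes (bottom). Stem cell marker UMIs spread over NEJ723 and the lower area of NEJ634, are sparse in NEJ687 and gather in 1 patch of NEJ146. Bands of spots reach 100 or more P450 and conjugation UMIs in the NEJ146 section. Of the NEJ146 sections, section 2 had the highest sum of the stem cell markers (64.2 CPM).

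Plasma protein genes were less uniform. Of 30, 13 were lower in NEJ634 and NEJ723, 2 were higher and 15 overlapped, beside 10.3% lower and 39.3% higher among all genes. The CPM counts of the lists that follow stand beside the same shares. Plg, plasminogen, was at 285 and 314 CPM against 940 and 532, and Kng1, kininogen, at 847 and 985 CPM against 2460 and 1450. Apoa2 was at 9410 and 8450 CPM against 14700 and 13600. Ttr, the carrier of thyroid hormone and retinol, was higher, at 10300 and 8200 CPM against 6700 and 5270, as was the coagulation factor F9, at 27.0 and 23.7 CPM against 21.9 and 19. Of 15 hepatocyte transcription factors tested, 6 were lower and 1 higher. Hnf4a, which maintains hepatocyte identity, was at 123 and 123 CPM against 178 and 127, a gap of 0.06. Foxa2, Foxa3, Nr1h4, Nr1i2, Nr5a2, Prox1, Creb3l3 and Nr1h3 overlapped. Of 13 genes of gluconeogenesis, glycogen and fructose, 3 were lower, among them Pck1, the regulated enzyme of gluconeogenesis, at 177 and 11 CPM against 258 and 331. Under the median of ratios, where 23.8% of all genes were lower, 18 of the plasma protein genes, 9 of the transcription factors and 6 of the gluconeogenesis, glycogen and fructose genes were lower. Of 18 genes of fatty acid oxidation and ketogenesis, 8 were lower and 3 higher, beside 10.3% and 39.3% of all genes. Under the median of ratios 8 were lower and 2 higher, beside 23.8% and 24.1%. Cpt1a, the gate to mitochondrial oxidation, was at 206 and 312 CPM against 155 and 131. Of 21 serine, methionine and one-carbon genes, 9 were lower and 4 higher, beside 10.3% and 39.3% of all genes. The higher count was thus under the share of all genes, as it was under the median of ratios (11 lower and 3 higher). The lower ones included Cbs (87.4 and 99.7 against 148 and 152 CPM) and Ahcy (87.9 and 103 against 155 and 146 CPM) of the methionine cycle, and the higher ones Psph (74.7 and 101 against 64.4 and 46.5 CPM) and Mthfd2 (37.7 and 65.8 against 30.9 and 18.2 CPM).

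Red cell genes separated the sides widely, with 9 of 11 tested lower and none higher, beside 10.3% lower among all genes. Hbb-bs, an adult beta-globin, was at 479 and 1320 CPM against 4830 and 5590. Hbb-bt, its close copy, was at 107 and 194 CPM against 655 and 646. Hba-a1 was at 195 and 544 CPM against 1610 and 1780, and Hba-a2 at 135 and 376 CPM against 1360 and 1390. The globin copies are nearly identical in sequence, so how reads were split among them is uncertain. Alas2, the heme synthesis enzyme of red cell precursors, was at 5.31 and 18.6 CPM against 53.7 and 38.0, and the membrane gene Slc4a1 overlapped at 14.5, 54.6, 195 and 41.5 CPM in NEJ634, NEJ723, NEJ687 and NEJ146. The list summed to 1130, 2800, 9460 and 9860 CPM against 144 to 330 CPM in the other 3 tissues. The study read Alas2, Hba-a1 and Gata1 as much lower in NEJ634 than in its other 3 tumors. NEJ634 was the lowest here too, and NEJ723 the next lowest, for Hba-a1, Alas2 and the summed list. Per the study's methods, mice were perfused before tissue was taken, and any effect on red cell genes was not tested. Neutrophil genes overlapped in 9 of 9, but all 9 were lower than in NEJ687, which had the highest sum at 1390 CPM against 885, 613 and 461 in NEJ634, NEJ723 and NEJ146.

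Among genes of other cell types, 8 of 15 macrophage genes were lower and none higher (13 lower under the median of ratios). Vsig4, a complement receptor of Kupffer cells, was at 49.2 and 0.665 CPM against 83.7 and 68.1, and Cd5l at 233 and 90.6 CPM against 609 and 338. Clec4f, the Kupffer cell lectin, overlapped because NEJ634 was at 96.0 CPM and NEJ146 at 75.6, while NEJ723 was at 0.275. The macrophage list summed to 1820, 979, 2750 and 1730 CPM in NEJ634, NEJ723, NEJ687 and NEJ146, so the sums overlapped. Of 14 endothelial genes, 7 were lower, with the sinusoidal genes Clec4g (18.1 and 2.66 against 31.2 and 33.6 CPM) and Dnase1l3 (14.3 and 3.57 against 35.1 and 24.4 CPM) showing the widest gaps. Cd74, H2-Aa and H2-Ab1, which serve antigen presentation, were the 3 lower of 5 tested genes of antigen-presenting and B cells. None of 12 T and NK cell genes passed the filter. Of 16 stellate cell and fibroblast genes, 6 were higher and 1 was lower, beside 39.3% and 10.3% of all genes. The counts were also 6 and 1 under the median of ratios, where those shares were 24.1% and 23.8%, so the reading against all genes turned with the scaling. Col6a3 was at 115 and 47.4 CPM against 17.3 and 30.7, and Pdgfrb, a receptor of stellate cells, at 32.3 and 25.7 CPM against 12.9 and 16.6. That list summed to 2530 CPM in NEJ634 but to 921 in NEJ723, which lay between NEJ687 (885) and NEJ146 (1010). The part of other cell types in the gaps of epithelial and hepatocyte genes was not tested.

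Imprinted genes, which are expressed from 1 parental copy and often active in fetal tissue, went both ways, with 7 of 15 higher and 3 lower, beside 39.3% and 10.3% of all genes. Against NEJ687 alone, 7 were higher and 6 lower, beside 44.4% and 30.4% of all genes in that comparison. Nnat was at 48.2 and 15 CPM against 1.18 and 3.98, although it overlaps Blcap on the opposite strand. Mest was at 53.9 and 40.3 CPM against 20.1 and 12.7. H19, a noncoding RNA of fetal liver, was lower at 2870 and 12.0 CPM against 9070 and 6020, and the cell cycle inhibitor Cdkn1c was lower at 21.2 and 0.527 CPM against 52.2 and 43.8. NEJ723 was the extreme in both. Phlda2 (9.82 and 0.0687 against 34.0 and 18.1 CPM) and, chosen after its values were seen, Slc22a18 (14.8 and 0.390 against 54.6 and 32.7 CPM) lie in the same stretch of chromosome 7 (142575529 to 143600090, GRCm38) and were lower too, while Cd81, Tssc4, Nap1l4 and Cars there overlapped. The antisense transcripts Igf2os (21.7 and 31.7 against 13.6 and 6.14 CPM) and Kcnq1ot1 (5.47 and 6.05 against 2.42 and 3.44 CPM, under the filter) of the same stretch, named after their values were seen, were higher, with the same doubt about strand. Of 9 oncofetal and progenitor genes tested, 2 were higher, Cldn6 and Igf2bp3, and H19 was lower, while Afp, Igf2, Cd24a, Prom1, Spink1 and Cd44 overlapped.

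Other lists gave the following counts, to be read beside the 39.3% higher and 10.3% lower of all genes, which several of them were near or under. Cholesterol synthesis and uptake genes were higher in 6 of 19 and lower in 1, with Mvk, of the mevalonate pathway, at 26.8 and 19.1 CPM against 14.3 and 13.3. Fatty acid synthesis genes were higher in 3 of 13 and lower in none. YAP target genes were higher in 4 of 6 and lower in 1, with Ajuba at 21.2 and 21.7 CPM against 11.7 and 12.5. Immediate early genes were higher in 6 of 11 and lower in none, with Ier3 at 14.8 and 16 CPM against 7.51 and 7.58. Acute phase genes were lower in 6 of 14, or in 3 without the P450-rich spots, and higher in 1, Saa3, at 127 and 41.8 CPM against 37.0 and 24.5. Glycolysis genes of growing tissue were higher in 4 of 12 and lower in 4, hypoxia genes higher in 4 of 10 and lower in 1, p53 targets higher in 2 of 9 and lower in 1, and iron handling genes higher in 1 of 13 and lower in 3. Wnt target genes, of which 4 passed the filter, overlapped in all 4, and 1 of 4 megakaryocyte genes was lower. Under scaling by the median of ratios, where 24.1% of all genes were higher and 23.8% lower, 1 glycolysis gene was higher and 6 were lower, 3 cholesterol genes were higher and 1 was lower, 1 fatty acid synthesis gene was higher and 1 was lower, and 7 iron handling genes were lower and none higher. Hypoxia genes then had 3 higher and 2 lower, and p53 targets 1 higher and 2 lower.

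Against NEJ687 alone, 3674 of the 8266 genes (44.4%) were higher in both NEJ634 and NEJ723 and 2514 (30.4%) were lower. These counts were 3062 and 3040 under the median of ratios and 2556 and 3435 under TMM, so the excess turned here too. Leaving out NEJ146 can add members but cannot remove one, so these counts are at least those above. Higher were 25 of 25 mitosis genes, 13 of 17 junction and keratin genes and 5 of 7 bile duct markers. Lower were 9 of 12 bile acid genes, 20 of 25 urea cycle and amino acid genes, 16 of 24 P450 and conjugation genes, 11 of 11 erythroid genes, 14 of 15 macrophage genes and 12 of 14 endothelial genes. More genes were lower than with NEJ146 in other lists as well, with 4 of 11 immediate early genes in place of none, 4 of 9 oncofetal and progenitor genes in place of 1, 8 of 13 iron handling genes in place of 3 and 20 of 30 plasma protein genes in place of 13.

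Some listed genes had too low a mean for the filter and were left out of these counts. Igf2bp1, an RNA-binding protein of fetal tissue, was at 9.32 and 13.2 CPM against 0.453 and 0.531. The imprinted transcription factor Plagl1 was at 19.9 and 13.6 CPM against 1.5 and 0.965, and the pioneer factor Foxa1 at 14.6 and 9.07 CPM against 2.73 and 3.65. In all 3 the sides did not overlap. Sall4, a stem cell transcription factor, did not overlap either but was lower, at 4.88 and 6.62 CPM against 12.4 and 7.92, whereas Sox9, a transcription factor of ducts, at 4.74 and 1.05 CPM against 0.836 and 2.33, did. At the limit of membership, Gsk3a was just inside (47.95, 44.98, 44.98 and 30.83 CPM in NEJ634, NEJ723, NEJ687 and NEJ146) and Dcaf12 just outside (35.55, 37.65, 35.56 and 30.75 CPM), so the smallest gaps were far below the median section SD of 0.081. On the lower side Tbc1d20 (23.67, 21.54, 27.60 and 23.67 CPM) was just inside and Nmnat1 (14.22, 8.799, 14.23 and 14.22 CPM) just outside.

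The tumors of one side were not alike. Between NEJ634 and NEJ723, 320 genes (3.87%) differed by 2-fold or more in CPM + 1, and between NEJ687 and NEJ146, 388 did (4.69%). Across the sides, 405 genes differed between NEJ634 and NEJ687, 492 between NEJ634 and NEJ146, 620 between NEJ723 and NEJ687, and 1182 (14.3%) between NEJ723 and NEJ146. NEJ634 was thus nearer to NEJ687 by this count than NEJ723 was. Across the 8266 genes, which are not independent replicates, Pearson's r of log2(CPM + 1) was 0.943 for NEJ634 with NEJ723, 0.944 for NEJ634 with NEJ687 and 0.954 for NEJ634 with NEJ146, so by this measure NEJ634 was not nearest to NEJ723. NEJ146 stood lower than the other tumors for most genes, with a median gene 0.33 below NEJ634, 0.35 below NEJ723 and 0.27 below NEJ687 on the log2 scale, and this shift enters the counts of higher and lower genes. Of the 86 genes, 57 still had a gap of at least 1 under the median of ratios and 51 under TMM, and all 31 lower genes did under both.

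**Figure D4:**
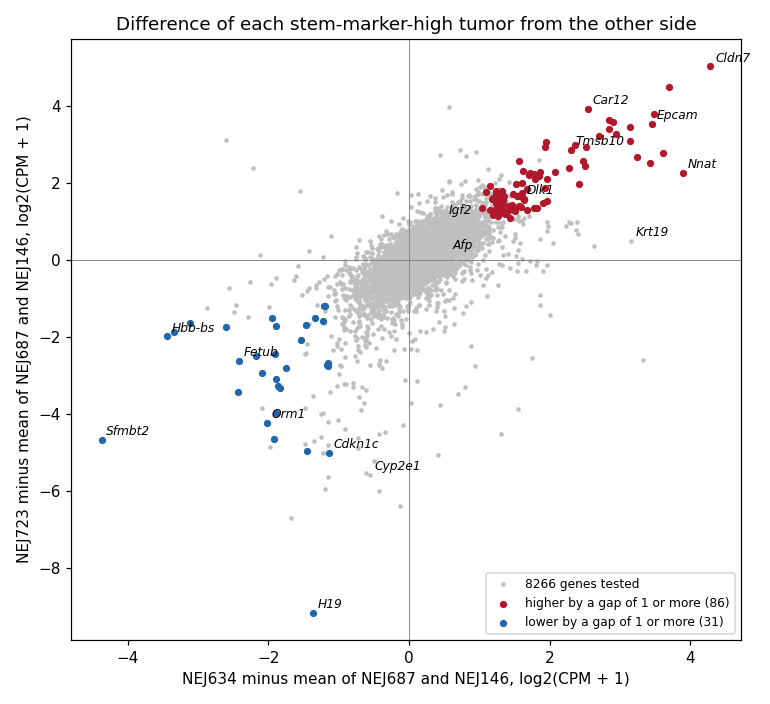
Difference of NEJ634 (x axis) and of NEJ723 (y axis) from the mean of NEJ687 and NEJ146 in log2(CPM + 1) for the 8266 genes tested, with genes of a gap of at least 1 in red (86 higher) and blue (31 lower). Cldn7 lies farthest to the upper right and Sfmbt2 farthest to the left, while H19 and Cdkn1c lie far lower for NEJ723 than for NEJ634, and Krt19 is high for NEJ634 alone.

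A contrast within each tumor asked whether genes that separate the sides also differ between spots. In each section, the 25% of spots with the most Dlk1, Epcam and Gpc3 UMIs per 10000, taken among spots of like depth, were set against the other spots. A fixed share of each depth class was chosen, so the choice includes some spots without any marker UMI. These were 42 of the 600 chosen in NEJ723, 140 of 1118 in NEJ687, 139 of 1114 in NEJ146 section 1, 3 of 1120 in section 2 and 246 of 1040 in section 4, and none in NEJ634 or NEJ146 section 3. The chosen spots held 3.83 (NEJ634), 3.97 (NEJ723) and 1.43 (NEJ687) marker UMIs per 10000, and 0.725 to 2.27 in the NEJ146 sections. No marker UMI was found in 8.04% of spots of NEJ634 and 16.4% of NEJ723, but in 62.4% of NEJ687 and 58.8 to 80.8% in NEJ146, while the spots not chosen held 1.0, 1.3 and 0.177 marker UMIs per 10000 in NEJ634, NEJ723 and NEJ687 and 0.00112 to 0.105 in the NEJ146 sections. Of 8263 genes, leaving out the 3 markers, 2552 (30.9%) were higher in the chosen spots of 4 of 4 tumors and 789 (9.55%) were lower in 4 of 4.

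Since the markers that ordered the tumors also chose the spots, the following is a description and no independent support. Of the 84 genes higher by a gap of at least 1, without Dlk1 and Epcam, 63 (75.0%) were higher in the chosen spots of all 4 tumors and none was lower in all 4. Of the 31 lower genes, 16 (51.6%) were lower in all 4 and none was higher. The median log2 ratio of the 84 genes was 0.739 and 0.262 for NEJ634 and NEJ723, and 0.193 and 0.788 for NEJ687 and NEJ146, against 0.085, 0.031, 0.019 and 0.085 over all genes. Cldn7 had ratios of 1.20, 0.24, 0.90 and 3.26, and Ddr1 of 1.28, 0.78, 0.48 and 1.48, in NEJ634, NEJ723, NEJ687 and NEJ146. On the lower side, Hrg had ratios of -1.77, -0.37, -0.19 and -0.41, and Abcg8 of -1.22, -0.75, -0.23 and -0.40. Over the 31 lower genes the medians were -0.998, -0.269, -0.097 and -0.235 in that order, so NEJ687 was nearest to 0 in both directions.

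**Figure D5:**
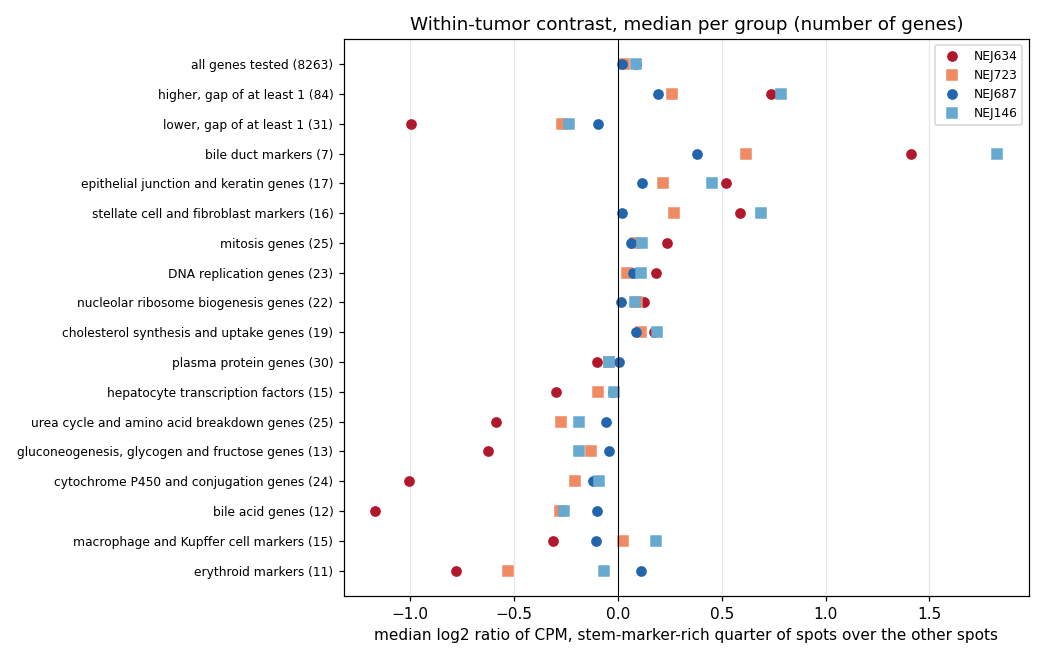
Median log2 ratio of CPM in the 25% of spots richest in Dlk1, Epcam and Gpc3 UMIs over the other spots, for groups of genes (number of genes in brackets), with 1 point per tumor and NEJ146 as the mean of its sections. Bile duct markers lie right of 0 in all 4 tumors (0.382 to 1.83), bile acid genes left of 0 in all 4 (-1.17 to -0.102), and erythroid markers on both sides.

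By list, all 7 bile duct markers were higher in the chosen spots of 4 of 4 tumors, although 3 of them overlapped between the sides. In NEJ687, Cldn4, Krt7 and Krt19 held 20, 53 and 118 UMIs over all tissue spots, so their signs there rest on few counts. Spp1 had ratios of 0.84, 1.34, 1.02 and 1.74, and Krt19 of 1.61, 1.26, 0.77 and 1.95, in NEJ634, NEJ723, NEJ687 and NEJ146. Of 17 junction and keratin genes 14 were higher in 4 of 4 tumors, of 25 mitosis genes 13, and of 16 stellate cell and fibroblast genes 8. These and the following counts stand beside 30.9% higher and 9.55% lower in 4 of 4 among all genes. Lower in 4 of 4 were 9 of 12 bile acid genes, 15 of 24 P450 and conjugation genes, 18 of 25 urea cycle and amino acid genes and 11 of 13 genes of gluconeogenesis, glycogen and fructose. Erythroid genes, which separated the tumors widely, were lower in 4 of 4 in 1 of 11 (9.09%), about the share of all genes. Their median was 0.109 in NEJ687 against -0.778 in NEJ634. Of 5 genes of antigen-presenting and B cells, 3 were lower in NEJ634 and NEJ723 as tumors, while 4 were higher in the chosen spots of 4 of 4 tumors. With Dlk1 alone to choose the spots, 2321 genes (28.1%) were higher and 810 (9.8%) lower in 4 of 4 tumors. The counts then fell to 49 of 84 higher genes, 2 of 7 bile duct markers and 9 of 17 junction and keratin genes, while 17 of the 31 lower genes were lower. Stellate cell and fibroblast genes fell to 3 of 16 and genes of antigen-presenting and B cells to 2 of 5, while 10 of 12 bile acid genes, 18 of 24 P450 and conjugation genes and 19 of 25 urea cycle and amino acid genes were lower. The counts of duct, junction, stellate and antigen-presenting cell genes thus depended on which markers chose the spots.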

How the data were processed

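Gene expression was measured on Visium slides. The deposited files hold counts of UMIs for every gene in nearly every spot of a slide, neither filtered nor normalized by the authors. Per the labels they were made on mm10 with Cell Ranger 6.0 for NEJ146 and with Space Ranger 1.3 for the other sections. The methods give another Space Ranger version, and the matrix headers name Cell Ranger 4. Spots over tissue were those of the deposited tissue call and, for NEJ146, spots of 8000 or more UMIs; in the other 6 sections that rule kept 82.41% of tissue spots and left out 40.77% of the rest. Counts were summed per tumor and divided by their total to give CPM. Genes needed a mean of 10 CPM over the 4 tumors. Sides were taken from the study's text, not from labels, and the members and gene lists were chosen with earlier results of these data known. Named genes were the 15 with the widest gap in each direction, the study's marker panel and up to 4 of each list, leaving out predicted models, Xist and Y-linked genes. Spots are not cells, so no doublet caller was run. The SD over the 4 NEJ146 sections covers differences among sections of 1 tumor, sectioning and library preparation included, and nothing here measures the spread between animals. Python 3.11.15 (numpy 2.4.6, pandas 2.3.3, scipy 1.17.1) and edgeR 4.0.16 (TMM factors alone) were used. The scripts that count genes were tested on simulated data. Gene positions come from GENCODE M21 (GRCm38) and promoters from RefSeq (GRCm38.p6), found for 6571 of the 8266 genes. Some listed genes are counted with their lists but not reported here.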

Additional observations from a re-analysis of the deposited data

Results flagged for a closer look

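Among the 4 NEJ146 sections, 12 of 183 genes or list sums looked at had 1 section far from the other 3, where chance gives about 1 in 20. The distance is the gap to the nearest section over the whole range. Section 4 was the highest for Enho (28.8 CPM against 22.1 to 22.9, 0.881), Mki67 (91.1 against 77.8 to 79.9, 0.842), Mdm2 (26.8 against 22.5 to 23.2, 0.837), Ccng1 (28.5 against 26.3 to 26.6, 0.864) and Bnip3 (302 against 232 to 241, 0.871). It was also the highest for the summed nucleolar (0.846), hypoxia (0.901) and iron handling genes (0.857), and the lowest for the summed acute phase genes (5320 against 6630 to 6820, 0.873). Section 2 was the highest for Car12 (1.39 against 1.03 to 1.08, 0.861) and Pfkp (20.4 against 18.4 to 18.5, 0.950), and section 1 for the summed bile acid genes (1940 against 1750 to 1780, 0.842). None of these sections lay on the side of NEJ634 and NEJ723 where the gene separated the sides.

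Spots outside the tissue call held 38.06% of UMIs in NEJ634, 37.47% in NEJ723 and 6.814% in NEJ687. In these spots Cldn7 was at 119, 228 and 3.57 CPM, Epcam at 46.0, 46.6 and 0.953 CPM, and Sfmbt2 at 1.09, 0.421 and 28.8 CPM, in the same order of tumors as in the tissue.

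The glycolysis genes of growing tissue had a median log2 ratio in spots rich in stem cell markers of 0.080 in NEJ634 and 0.044 in NEJ723, above 0, and of -0.057 to -0.006 in NEJ687 and the NEJ146 sections, below 0. The mean of NEJ634 and NEJ723 exceeded the mean over NEJ687 and the single NEJ146 sections by 0.092. There each NEJ146 section counted as much as NEJ687, and that difference was not tested. The median over all genes was also above 0, at 0.085 for NEJ634 and 0.031 for NEJ723. The glycolysis genes of these tumors thus lay near the level of all genes. For the other side, the all-gene medians (NEJ687 0.019, NEJ146 0.085) lay above the glycolysis values. Of 12 glycolysis genes, 1 (8.33%) was higher in 4 of 4 tumors, beside 30.9% of all genes, and 1 was lower, beside 9.55%.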

How the results depend on the processing

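Each count was recomputed under other settings. Leaving out NEJ634 or NEJ723, spots of at least 8000 UMIs in every tumor, NEJ146 spots by mitochondrial share, leaving out P450-rich spots, and all alternatives of the counts against NEJ687 alone were chosen after seeing the data. The 3252 higher genes became 5115 with a mean of at least 1 CPM, 881 with 50 CPM, 1555 with TMM, 1996 with median-of-ratios factors and 5772 without NEJ687. The 854 lower genes became 436 with 50 CPM, 2307 with TMM, 1970 with median-of-ratios factors, 2514 without NEJ146, 1294 without NEJ687 and 1828 without NEJ634. The 86 became 225 with 1 CPM, 14 with 50 CPM, 54 with a pseudocount of 5, 51 with TMM, 57 with median-of-ratios factors, 138 without NEJ146, 268 without NEJ687, 195 without NEJ634 and 143 without NEJ723. The 31 became 18 with 50 CPM, 20 with a pseudocount of 5, 66 with TMM, 50 with median-of-ratios factors, 99 without NEJ146, 107 without NEJ687 and 246 without NEJ634. Leaving out 1 NEJ146 section gave 3224 to 3270 and 831 to 870 genes, and 86 to 93 and 29 to 31 at a gap of 1. Against NEJ687 alone, 3674 genes were higher and 2514 lower, 138 and 99 at a gap of 1. The higher became 5829 and 1107 at 1 and 50 CPM, the lower 1025 at 50 CPM, the 138 became 351, 26 and, with a pseudocount of 5, 82, and the 99 became 177 and 50. Counts in spots rich in markers stayed at 2321 to 2584 higher and 681 to 878 lower, including 2438 to 2584 and 738 to 814 without 1 section. Of the 2552 and 789 genes, 1761 to 1790 and 494 to 587 were the same genes with the top 10%, the top 50% or Dlk1 alone.

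Of 3404 combinations of 148 named genes and settings, 585 moved by over the section SD and 25, in 15 genes, lost the order. They include Glul (0.08 to -0.03 with spots of at least 8000 UMIs in place of the tissue call, -0.06 without P450-rich spots), Npm1 (0.34 to -0.02 with median-of-ratios factors) and Crp (0.20 to -0.02 without P450-rich spots). The gap of Bax was reversed, from 0.05 to -0.11 with TMM. The cause was not tested. The median difference of all genes was 0.20, and -0.05 with TMM. Genes of few UMIs, such as Sfmbt2 in NEJ723, are limited by counting error. No paired analysis was possible because each tumor is 1 unit and no replicate numbers join the sides.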
